A study of Mus musculus with 24 samples.

Results

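The ATF4 arm of the stress response was followed through 10 genes in C2C12 mouse myoblasts depleted of KEAP1, of FEM1B or of both. They were taken as a list of named genes, the factors of the integrated stress response and its signature targets, out of the 35929 genes in the summed table. The list holds the transcription factors Atf4, Atf5, Atf3, Ddit3 (which encodes CHOP) and Cebpb, and the downstream genes Trib3, Chac1, Asns, Ddit4 and Sesn2. C2C12 is an established line of skeletal muscle precursor cells that fuse into myotubes when growth factors are withdrawn. All cells were kept undifferentiated and subconfluent and were harvested 48 h after siRNA was transfected. Of the 4 groups, siCont had a control siRNA with no target, siKeap1 and siFem1b had the siRNA named for each gene, and siFem1b/Keap1 had both of these, with 3 libraries in each group and each library sequenced in 2 runs. Each gene was targeted with a single siRNA sequence, and the control cells carried the transfection and a siRNA as well. Whether the 3 libraries of a group were separate cultures is not said in the labels. The spread behind each p-value is that between libraries and may be technical.

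KEAP1 is the receptor through which a CUL3 ubiquitin ligase recognises NRF2, and FEM1B is a receptor of CUL2 ubiquitin ligases; the series is about how cells sense reductive stress. In the integrated stress response, kinases that sense amino acid shortage, misfolded protein in the endoplasmic reticulum, double-stranded RNA or mitochondrial and heme stress phosphorylate the alpha subunit of the initiation factor eIF2. General translation then falls while ATF4 is translated more, because upstream reading frames in its mRNA otherwise keep ribosomes away from its coding sequence. ATF4 pairs with C/EBP proteins on composite C/EBP-ATF elements and switches on genes of amino acid uptake, amino acid synthesis and tRNA charging, together with Atf3, Ddit3, Trib3 and Chac1. Only RNA was measured, so the amount of ATF4 protein is not known from these data.

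In the promoters, the composite C/EBP-ATF element (TGATGNAA, searched on both strands) was found in 4 of the 10 genes: Atf3, Chac1, Trib3 and Asns. The windows came from RefSeq (GRCm38.p6), which had an entry for all 10, and ran from 250 bases before to 50 bases after each annotated start. Elements outside these windows were not searched for, so a gene without a match may hold one further away. The element was present in 3.97% of all 32851 promoters of that length and in 2.49% of the 13768 promoters of genes tested here. The matches are printed because these same 4 genes carry the largest departures from additivity described further down; capitals mark the match, and all runs are 5′ to 3′ on the strand of the gene. The Chac1 run ends just before its GENCODE start and shows the element 193 bases upstream of the RefSeq start.
Chac1, chr2:119350992-119351228, plus strand: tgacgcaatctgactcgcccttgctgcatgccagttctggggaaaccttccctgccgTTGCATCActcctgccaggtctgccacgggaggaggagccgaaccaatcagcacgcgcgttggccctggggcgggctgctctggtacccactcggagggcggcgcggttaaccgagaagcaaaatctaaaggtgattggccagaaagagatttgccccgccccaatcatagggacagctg
Atf3, chr1:191183425-191183454, minus strand: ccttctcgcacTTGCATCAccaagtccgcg
Trib3, chr2:152344028-152344057, minus strand: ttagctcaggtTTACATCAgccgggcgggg
Asns, chr6:7693214-7693243, minus strand: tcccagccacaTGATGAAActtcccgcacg

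The matches in Chac1, Atf3 and Trib3 read TGATGNAA on the opposite strand, and the Asns match reads it on the strand of the gene. Relative to the RefSeq start, the match lay 110 bases upstream in Atf3, 23 bases upstream in Asns and 15 bases downstream in Trib3. The GENCODE gene starts of Asns (7693254) and Atf3 (191218039) lie before the match, and that of Trib3 (152344032) lies after it. By that annotation the side is reversed in these genes. The GENCODE starts of Asns and Trib3 lie inside the windows searched. That of Atf3 lies far outside its window (chr1:191183284-191183583), so it marks another start than the one searched. Shorter letters searched in the same windows were common everywhere. The short CRE site TGACG was in 6 of the 10 genes, in 20.8% of all promoters and in 29% of those of tested genes. The CCAAT box CCAAT was in 7 of the 10, in 37.4% of all and in 37.6% of those of tested genes, and CCACG, a part of the endoplasmic reticulum stress element, was in 7, in 32.8% and in 45.1%. Each is a match of letters and not a measured binding site.

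Before the genes themselves, the libraries were checked. They held 31.9 M to 43.0 M estimated counts each. Levels below are CPM (counts per 1 M), scaled to the library's total times its TMM factor, and tests are edgeR quasi-likelihood tests on all 12 libraries with p-values adjusted by Benjamini and Hochberg's method over 14564 genes. Keap1 was at 61.8 ± 1.41 CPM (SD, n = 3) in siCont, 9.99 ± 1.30 in siKeap1 and 9.38 ± 0.189 in siFem1b/Keap1. Fem1b was at 96.9 ± 3.97 CPM in siCont, 13.2 ± 0.425 in siFem1b and 12.7 ± 1.33 in siFem1b/Keap1, so both targets were low in each library that was labelled for them. Of 10 myoblast markers, all passed the filter on low counts, and their summed level moved with the groups, at 1798 to 1843 CPM in siCont, 1544 to 1649 with siKeap1, 2269 to 2399 with siFem1b and 1932 to 1993 with both. Against siCont, 9 of the 10 were higher in siFem1b and 6 were lower in siKeap1, beside 30.0% and 23.9% of all tested genes. Markers of differentiated muscle moved as well: their summed level was 62.1 to 80.6 CPM in siCont, 62.4 to 67.7 with siKeap1, 548 to 571 with siFem1b and 315 to 321 with both, and 19 of 20 passed the filter. Of the 19, 9 were lower and 1 was higher in siKeap1 against siCont, with a median log2 change of -0.69. All 19 were higher in siFem1b and 16 with both. Of all tested genes, 23.9% were called lower and 18.4% higher in siKeap1. The shares called higher were 30.0% in siFem1b and 33.9% with both. The part of these shifts in the changes below was not tested, and in bulk RNA a change in the share of cells of a kind and a change in RNA per cell cannot be told apart. Markers of other cell types were summed in the same way. Of 8 leukocyte markers 3 passed; the sum was 11.2 to 12.8 CPM in siCont, 17.4 to 19.1 with siKeap1, 11.5 to 12.5 with siFem1b and 19.7 to 20.9 with both, mostly from Cd14 (9.89 CPM in siCont and 13.6 with both) and Cd68 (1.56 and 5.71), while Adgre1 was at 0 in every group. Of 6 adipocyte markers 2 passed; the sum was 31.4 to 32.6 CPM in siCont, 39.5 to 40.0 with siKeap1, 30.5 to 33.9 with siFem1b and 44.7 to 45.7 with both, nearly all from Pparg (31.7 CPM in siCont and 44.8 with both), while Adipoq was at most 0.0348 CPM as a group mean. Of 6 neural markers 4 passed; the sum was 210 to 217 CPM in siCont, 294 to 316 with siKeap1, 248 to 263 with siFem1b and 276 to 287 with both, nearly all from Tubb3. Of 6 endothelial markers 4 passed, and their sum went from 0.880 to 1.02 CPM in siCont up to 1.85 to 2.26 with both. Of 7 epithelial markers 5 passed; they summed to 42.5 to 47.6 CPM in siCont, 102 to 108 with siKeap1, 82.2 to 90.4 with siFem1b and 146 to 164 with both, with Krt14 and Krt19 as the most abundant and Epcam at most 0.0461 CPM as a group mean. The part of these markers in the results was not tested either. All 10 stress response genes passed the filter on low counts.

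Within the list, levels per transcript length were compared from the deposited TPM values. In siCont the order was Atf4 at 369.5 ± 18.5 TPM, Asns at 134 ± 5.76, Atf5 at 97.4 ± 3.13, Cebpb at 45.5 ± 2.05, Ddit3 at 45.0 ± 3.49, Ddit4 at 30.8 ± 1.87, Chac1 at 22.0 ± 0.800, Sesn2 at 15.0 ± 0.815, Trib3 at 14.4 ± 0.757 and Atf3 at 13.9 ± 0.921. The libraries of Cebpb and Ddit3 overlapped, as did those of Sesn2, Trib3 and Atf3, so these neighbours did not differ beyond their spread. In siFem1b/Keap1 the order was changed in the middle: Atf4 at 213 ± 3.64 TPM stayed first, Atf5, Cebpb and Asns followed with overlapping libraries at 67.9, 65.2 and 64.4 TPM, and Trib3 was last at 5.66 ± 0.103 TPM. Asns, which encodes asparagine synthetase, was thus on a level with Cebpb and Atf5 there after being well above both in siCont. One annotated transcript carried 96.3% to 97.7% of the Atf4 TPM in each group.

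**Figure D1:**
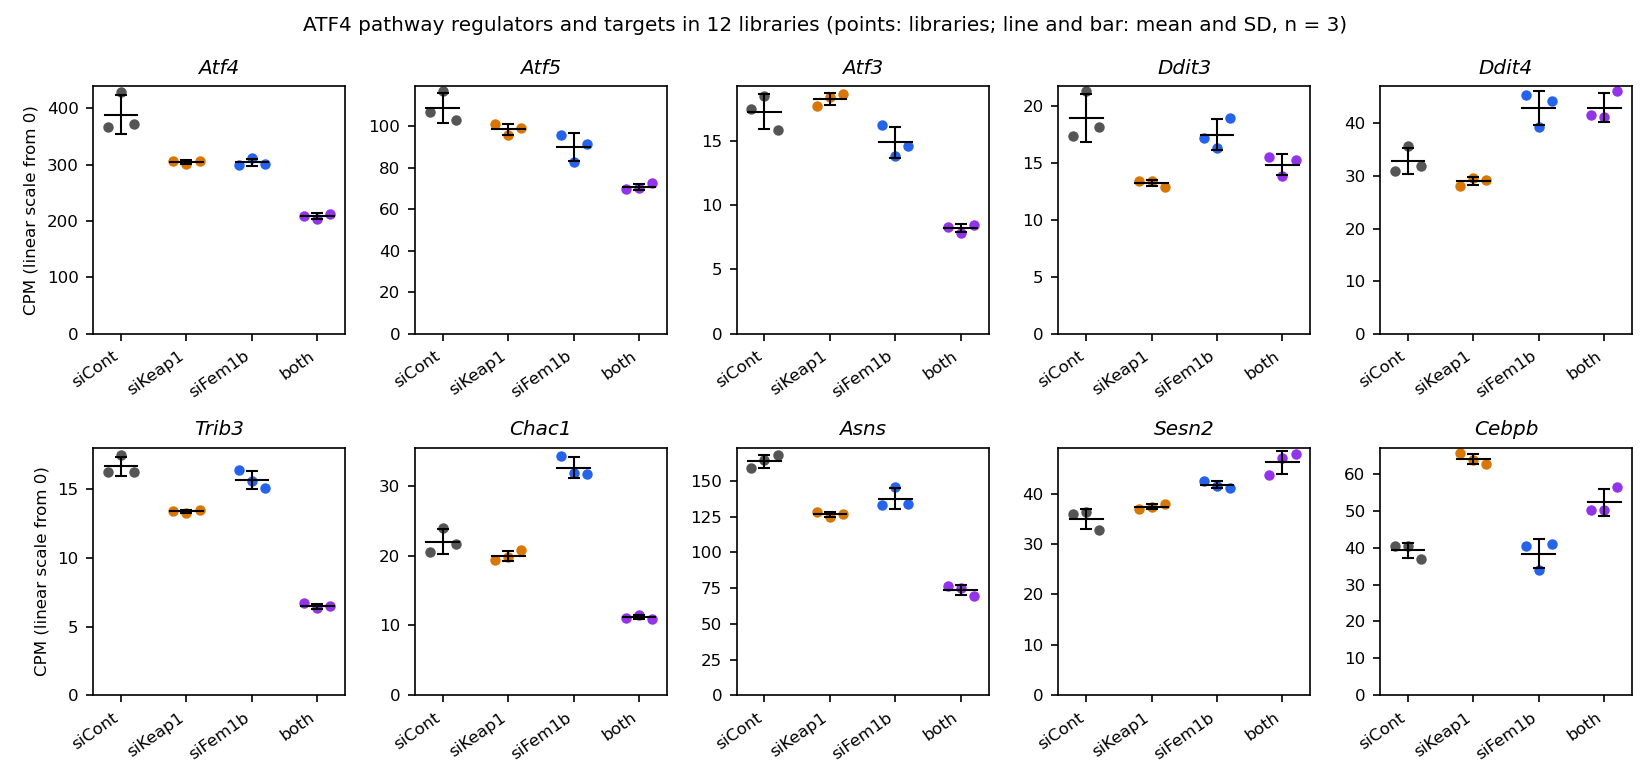
CPM of the 10 genes (y axis, linear from 0, a separate scale for each gene) in the 4 siRNA groups (x axis; both means siFem1b/Keap1); points are libraries, the line is the mean and the bar the SD of 3. Atf4 steps down from 388 CPM in siCont to 305 with siKeap1, 304 with siFem1b and 208 with both, Chac1 is highest in siFem1b and lowest in siFem1b/Keap1, and Sesn2 is highest in siFem1b/Keap1.

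Atf4 itself fell with each siRNA and fell most with both. Atf4 (chr15:80255184-80257541, plus strand, GENCODE M21 on GRCm38) encodes the central transcription factor of the response. It measured 366, 428 and 371 CPM in the 3 siCont libraries and 307, 301 and 306 CPM with siKeap1. It measured 300, 311 and 301 CPM with siFem1b and 209, 203 and 213 CPM with siFem1b/Keap1. The siCont libraries lay above all others, the siKeap1 and siFem1b libraries covered nearly the same range, and the libraries with both siRNAs lay below all of them. In the deposited TPM, which carry no TMM factor, siKeap1 and siFem1b did not overlap. Atf4 was at 284.2 to 291.3 TPM with siKeap1 and at 304.6 to 331.7 TPM with siFem1b. Against siCont, Atf4 was 1.27-fold lower in siKeap1 (adjusted p = 8.1e-06, edgeR), 1.28-fold lower in siFem1b (adjusted p = 3.2e-06) and 1.86-fold lower in siFem1b/Keap1 (log2 difference -0.90, SE 0.049, adjusted p = 6.3e-12). The sum of the single log2 changes was -0.70. The departure from it was -0.20 (SE 0.068) and did not pass the threshold (adjusted p = 0.074), though it did under 8 of 22 alternatives, with an adjusted p of 0.0011 when the second siCont library, the highest at 428 CPM, was left out. The other libraries whose omission brought it past the threshold were siFem1b 2 (adjusted p = 0.049) and siFem1b/Keap1 3 (adjusted p = 0.042).

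Atf5, a paralogue of Atf4 that is also held back by upstream reading frames, followed the same order with smaller steps. It measured 107, 117 and 103 CPM in siCont and 101, 95.7 and 99.1 CPM with siKeap1. It measured 95.9, 82.7 and 91.4 CPM with siFem1b and 69.8, 70.1 and 72.5 CPM with siFem1b/Keap1. The libraries with both siRNAs again lay below all 9 others, whereas siKeap1 and siFem1b overlapped. Against siCont it was 1.21-fold lower in siFem1b (adjusted p = 0.00014, edgeR) and 1.54-fold lower in siFem1b/Keap1 (adjusted p = 4.2e-09). With siKeap1 it was 1.11-fold lower (adjusted p = 0.033), a call that was lost under 12 of 23 alternatives: leaving out siCont 1 or 2, siKeap1 2 or 3, siFem1b 3 or siFem1b/Keap1 3 gave adjusted p-values of 0.066 to 0.16. The departure from the sum of the single changes was -0.20 (SE 0.075, adjusted p = 0.094), and it passed without siCont 2 (adjusted p = 0.03) or without siFem1b 2 (adjusted p = 0.0048).

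Atf3, a stress-induced factor that ATF4 activates, was lowered most where both siRNAs were present. It measured 17.5, 18.5 and 15.8 CPM in siCont and 17.7, 18.4 and 18.6 CPM with siKeap1. It measured 16.2, 13.8 and 14.6 CPM with siFem1b and 8.32, 7.84 and 8.48 CPM with siFem1b/Keap1. The first 3 groups overlapped or nearly touched, and the last lay far below them. The double depletion was 2.10-fold below siCont (log2 difference -1.07, SE 0.076, adjusted p = 3.2e-10, edgeR), 2.22-fold below siKeap1 and 1.81-fold below siFem1b. The siKeap1 difference from siCont did not pass (log2 0.08, interval of 95% from -0.08 to 0.24, adjusted p = 0.37). The siFem1b difference passed (1.16-fold lower, adjusted p = 0.015) but was lost under 9 of 23 alternatives, among them leaving out siCont 1, siCont 2, siFem1b 2 or siFem1b 3 (adjusted p from 0.056 to 0.088).

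Ddit3, which encodes CHOP, a factor linked to cell death after lasting stress, had another pattern: it was lowest with siKeap1 alone. It measured 17.3, 21.3 and 18.1 CPM in siCont and 13.4, 13.4 and 12.9 CPM with siKeap1. It measured 17.2, 16.3 and 18.9 CPM with siFem1b and 15.5, 13.8 and 15.2 CPM with siFem1b/Keap1. The siFem1b libraries lay within the siCont range or just below it, and the double depletion lay between siKeap1 and siFem1b. Against siCont it was 1.43-fold lower in siKeap1 (adjusted p = 3.4e-05, edgeR) and 1.27-fold lower in siFem1b/Keap1 (adjusted p = 0.00069), and the siFem1b difference did not pass (log2 -0.11, adjusted p = 0.23). The double depletion was 1.18-fold below siFem1b (adjusted p = 0.021), a call lost without siFem1b 3 (adjusted p = 0.1) or siFem1b/Keap1 2 (adjusted p = 0.11) and with an offset for transcript length. Against siKeap1 it differed by a log2 of 0.17 (adjusted p = 0.082), which passed without siCont 2 (adjusted p = 0.046) or without siFem1b/Keap1 2 (adjusted p = 0.042). A pair of gene entries carries the Ddit3 symbol in the annotation and were summed. The shorter one, of 105 bases, had a mean of 0 TPM in siCont, siFem1b and siFem1b/Keap1 and of 0.533 TPM in siKeap1. In siKeap1 its share of the Ddit3 TPM ran from 0% to 4.666% over the 3 libraries, with a mean of 1.555%.

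Cebpb, whose product is a dimer partner of ATF4 at the composite element, rose with siKeap1. It measured 40.5, 40.5 and 37.0 CPM in siCont and 65.6, 63.9 and 62.7 CPM with siKeap1. It measured 40.4, 33.9 and 41.0 CPM with siFem1b and 50.1, 50.2 and 56.6 CPM with siFem1b/Keap1. The siKeap1 libraries were the highest of the 12 and the double depletion came next, while siFem1b and siCont overlapped. The rise with siKeap1 was 1.63-fold (adjusted p = 1.1e-07, edgeR) and that of the double depletion against siCont was 1.33-fold (adjusted p = 2.5e-05). Adding siFem1b to siKeap1 lowered Cebpb 1.22-fold (adjusted p = 0.0007). The siFem1b difference from siCont was a log2 of -0.03 (interval of 95% from -0.19 to 0.12, adjusted p = 0.71), and its sign turned when library totals alone set the scale (0.07) and when the second siFem1b library was left out (0.06). The departure from additivity was -0.26 (adjusted p = 0.084), and it passed without siFem1b 2 (adjusted p = 0.002) or without siFem1b/Keap1 3 (adjusted p = 0.019).

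Among the targets, Chac1 showed the widest swing. Chac1 (chr2:119351229-119354381, plus strand) encodes an enzyme that breaks down glutathione, the main thiol buffer of the cell. It measured 20.5, 23.9 and 21.6 CPM in siCont and 19.4, 19.8 and 20.8 CPM with siKeap1. It measured 34.3, 31.8 and 31.7 CPM with siFem1b and 11.1, 11.5 and 10.9 CPM with siFem1b/Keap1. With siFem1b all 3 libraries lay above the 9 others, and with both siRNAs all 3 lay below them. Chac1 therefore rose 1.49-fold with siFem1b alone (log2 0.57, SE 0.059, adjusted p = 1e-07, edgeR) and was 1.96-fold lower with both siRNAs (log2 -0.97, SE 0.065, adjusted p = 1.5e-10). The siKeap1 difference did not pass (log2 -0.13, interval of 95% from -0.28 to 0.01, adjusted p = 0.093). Between siFem1b and siFem1b/Keap1 the difference was 2.92-fold (log2 -1.54, SE 0.064, adjusted p = 9.4e-13), which ranked 43 of 14564 by p in that comparison.

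Trib3 encodes a pseudokinase that ATF4 and CHOP induce and that damps the response. It measured 16.3, 17.5 and 16.3 CPM in siCont and 13.4, 13.3 and 13.5 CPM with siKeap1. It measured 16.4, 15.6 and 15.1 CPM with siFem1b and 6.70, 6.33 and 6.47 CPM with siFem1b/Keap1. The siFem1b libraries overlapped with siCont, and the double depletion stood well below every other library. Trib3 was 2.57-fold lower than siCont with both siRNAs (log2 -1.36, SE 0.066, adjusted p = 1.3e-12, edgeR), which was the largest fold among the 10 genes in that comparison. It was 1.24-fold lower with siKeap1 (adjusted p = 0.00034), while the siFem1b difference of -0.09 on the log2 scale did not pass (adjusted p = 0.22) and came to 0.01 when library totals alone set the scale.

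Asns, the amino acid synthesis gene of the list, fell in each group. It measured 159, 165 and 168 CPM in siCont and 128, 125 and 127 CPM with siKeap1. It measured 133, 146 and 134 CPM with siFem1b and 76.3, 75.3 and 69.7 CPM with siFem1b/Keap1. None of the groups overlapped. Against siCont Asns was 1.29-fold lower in siKeap1 (adjusted p = 1.3e-06, edgeR), 1.19-fold lower in siFem1b (adjusted p = 5.6e-05) and 2.22-fold lower in siFem1b/Keap1 (log2 -1.15, SE 0.045, adjusted p = 7.3e-14).

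Ddit4 and Sesn2 encode inhibitors of mTORC1 that stress induces, and both went up where Fem1b was depleted. Ddit4 measured 30.9, 35.7 and 31.9 CPM in siCont and 28.1, 29.6 and 29.2 CPM with siKeap1. It measured 45.3, 39.3 and 44.2 CPM with siFem1b and 41.6, 41.2 and 46.2 CPM with siFem1b/Keap1. The 6 libraries with the Fem1b siRNA lay above the 6 without it. The rise was 1.31-fold in siFem1b (adjusted p = 2.9e-05, edgeR) and 1.31-fold in siFem1b/Keap1 (adjusted p = 2.3e-05), and these groups differed by a log2 of 0.00 (interval of 95% from -0.14 to 0.15). Against siCont Ddit4 was 1.13-fold lower in siKeap1 (adjusted p = 0.038), a call lost under 16 of 23 alternatives; without siCont 1 or 2, any one siKeap1 library, siFem1b 3 or siFem1b/Keap1 3 the adjusted p was 0.051 to 0.18.

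Sesn2 measured 36.0, 36.3 and 32.8 CPM in siCont and 36.9, 37.4 and 37.9 CPM with siKeap1. It measured 42.5, 41.6 and 41.2 CPM with siFem1b and 43.7, 47.1 and 47.8 CPM with siFem1b/Keap1. The groups did not overlap and stood in that order. The rise against siCont was 1.19-fold in siFem1b (adjusted p = 0.00018, edgeR) and 1.32-fold in siFem1b/Keap1 (adjusted p = 6.3e-07), and the siKeap1 difference of 0.10 on the log2 scale did not pass (adjusted p = 0.13), though it did without siCont 1 (adjusted p = 0.046). The double depletion was 1.11-fold above siFem1b (adjusted p = 0.02), which was lost without siFem1b 2 or 3 or siFem1b/Keap1 2 or 3 (adjusted p from 0.055 to 0.1).

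**Figure D2:**
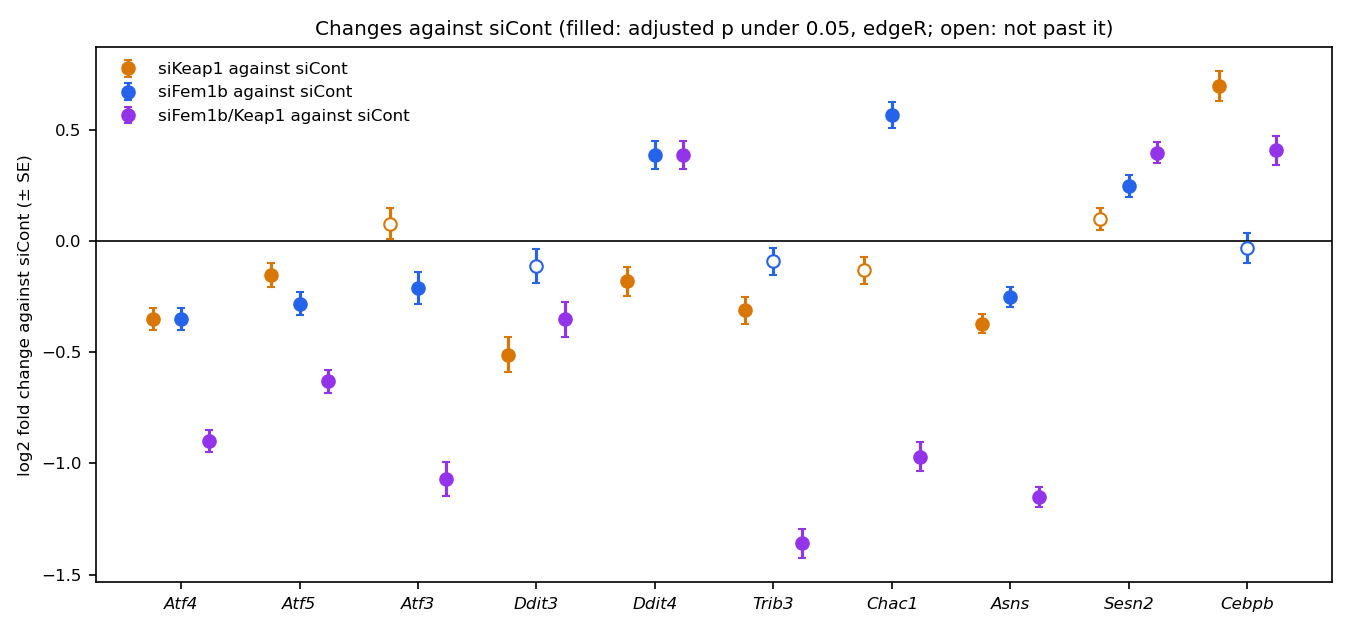
Log2 fold change against siCont with its SE (y axis) for the 10 genes (x axis) in siKeap1 (orange), siFem1b (blue) and siFem1b/Keap1 (purple); filled points passed an adjusted p of 0.05 and open points did not. The purple points of 7 genes lie below 0, down to -1.36 for Trib3, while Ddit4, Sesn2 and Cebpb lie near 0.4; the blue Chac1 point at 0.57 stands opposite to its purple one at -0.97.

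Counted over the list, siKeap1 against siCont raised 1 of the 10 genes (Cebpb) and lowered 6, beside 18.4% of all tested genes called higher and 23.9% called lower. With siFem1b, 3 were higher (Ddit4, Chac1 and Sesn2) and 4 were lower, beside 30.0% and 32.1% of all genes. With both siRNAs against siCont, 3 were higher and 7 lower, beside 33.9% and 33.7%. The double depletion against siKeap1 gave 2 higher and 7 lower, beside 32.0% and 31.6%, and against siFem1b it gave 2 higher (Sesn2 and Cebpb) and 7 lower, beside 21.3% and 21.9%. With siFem1b alone the 3 of 10 higher and the 4 of 10 lower genes are both near the background shares. So are the 3 of 10 higher genes with both siRNAs against siCont. Of the 4 lower genes with siFem1b, 1, Atf3, was lost under 9 of 23 alternatives. Of the 6 lower genes with siKeap1, Atf5, Ddit4 and Trib3 were each lost under at least 1 alternative. The median log2 change of the list was -0.16 with siKeap1, -0.10 with siFem1b and -0.76 with both, where the median of all tested genes was -0.02, -0.01 and 0.00. These 3 comparisons share the siCont libraries. Scaling by library totals alone moved the median of all genes by up to 0.123 (siFem1b/Keap1 against siCont), and the share of higher genes among all calls went from 48.3% to 60.6% in siFem1b, from 50.1% to 62.1% in siFem1b/Keap1, both against siCont, and from 50.3% to 61.7% in siFem1b/Keap1 against siKeap1.

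The factorial design asks whether the double depletion equals the sum of the single ones. The interaction is the log2 change that siKeap1 makes on top of siFem1b less the log2 change it makes on its own. It passed the threshold for 4 of the 10 genes, all of them below 0, where 5.36% of all tested genes were called below 0 and 6.14% above it. The split turned with the setting: 53.4% of all called interactions were above 0 here, 48.3% with DESeq2 size factors, 32.7% and 36.4% in the first and second run alone, and 38.6% without siFem1b 2. At an unadjusted p under 0.05, edgeR gave 7 of the 10 below 0 and 1 above, and after adjustment DESeq2 gave 5 and 0 and limma-voom 4 and 0. The shares of all tested genes at an unadjusted p were not counted, here or for the lists below. Chac1 departed most: the single changes add to 136% of the siCont level and the fitted level was 51.0% of it, a departure of -1.41 (SE 0.089, adjusted p = 4.2e-09, edgeR), which ranked 14 of 14564 by p. For Trib3 the sum gives 75.9% and the fit 39.0% (interaction -0.96, SE 0.089, adjusted p = 7.1e-07). For Atf3 the sum gives 91.5% and the fit 47.6% (interaction -0.94, SE 0.10, adjusted p = 5.9e-06), and for Asns 64.9% and 45.0% (interaction -0.53, SE 0.063, adjusted p = 1.4e-05). All 4 are lower than the sum of the single changes. These are the same 4 genes whose promoter windows hold the composite element printed above. The part of the element in these departures was not tested. Ddit3 (0.28, adjusted p = 0.13), Ddit4 (0.18, adjusted p = 0.24) and Sesn2 (0.05, adjusted p = 0.73) did not pass, with 95% intervals of 0.02 to 0.54, -0.03 to 0.39 and -0.11 to 0.21.

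**Figure D3:**
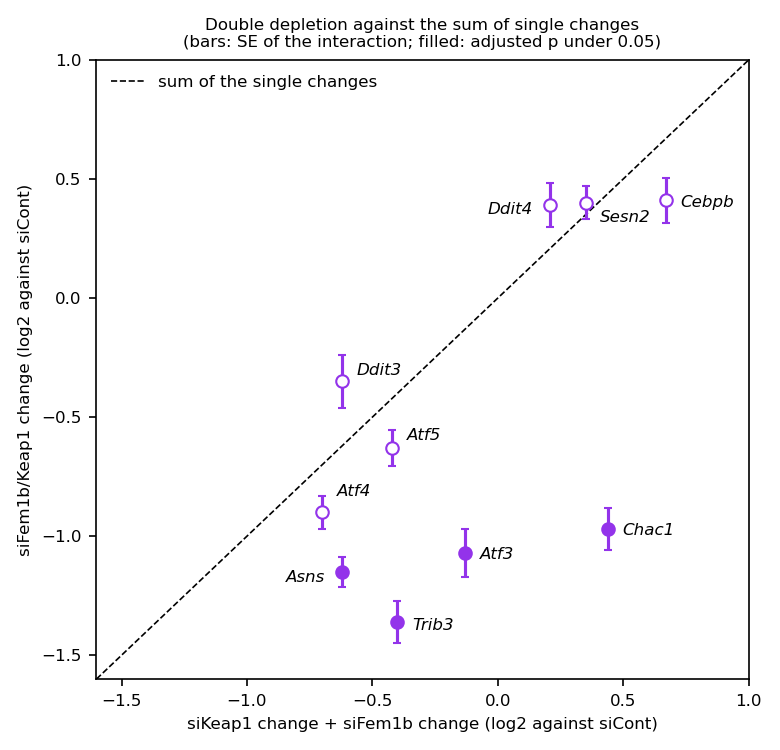
Sum of the siKeap1 and siFem1b log2 changes (x axis) against the log2 change of siFem1b/Keap1 (y axis), all against siCont, for the 10 genes; the dashed line marks equality, bars are the SE of the interaction and filled points passed an adjusted p of 0.05. Chac1 (0.44 against -0.97), Trib3, Atf3 and Asns lie below the line, and Sesn2 lies on it within its bar.

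Across tested genes with an entry in the promoter table, the same element was set against the same interaction as a description. Of 325 such genes with the element, 39 (12%) had an interaction below 0 that passed and 20 (6.15%) one above 0. Of 10500 without it, the shares were 5.43% and 6.47%. For the double depletion against siCont, genes with the element were called lower in 30.77% and those without it in 35.12%. Among the other known ATF4 target genes with an entry, 10 of 13 with the element and 12 of 19 without it had an interaction below 0 that passed. These 10 are among the 39 above, as are the 4 studied genes that hold the element, so the counts are not separate.

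The other known ATF4 target genes, 44 in number and all above the filter, fell for the most part with both siRNAs. CPM in the account of these lists are means of 3 libraries. In siFem1b/Keap1 against siCont 35 fell and 3 rose, with a median of -0.71, beside 33.7% and 33.9% of all tested genes. The interaction was below 0 and passed in 29 and above 0 in none, beside 5.36% and 6.14% of all tested genes. Its median was -0.31 where all tested genes had 0.02. At an unadjusted p under 0.05, edgeR gave 31 below 0 and 1 above, and after adjustment DESeq2 gave 30 and 0 and limma-voom 29 and 0. The 5.36% and 6.14% are shares at an adjusted p and are not a background for the unadjusted counts. Slc7a5, a subunit of the large neutral amino acid transporter, fell from 317 to 89.3 CPM (log2 -1.83, adjusted p = 2.8e-17, edgeR). The mitochondrial folate enzymes Mthfd2 (126 to 42.0 CPM, log2 -1.59) and Aldh1l2 (107 to 23.1 CPM, log2 -2.20) fell with it, as did the leucyl-tRNA synthetase gene Lars (208 to 75.5 CPM, log2 -1.46). The 3 that rose were Gadd45a (0.75), Tnfrsf10b (0.59) and Gpt2 (0.15), named here after their values were seen.

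With one siRNA at a time the same 44 genes split. Of all tested genes, 32.1% were called lower and 30.0% higher with siFem1b, and 23.9% and 18.4% with siKeap1. The share of the 44 that rose with siKeap1 was near that of all tested genes. With siFem1b 31 fell and 7 rose (median -0.31), and the 4 with the smallest p were Lars (-1.04), the serine and glycine enzymes Shmt2 (-1.01) and Phgdh (-0.73), and Slc7a5 (-0.60). With siKeap1 23 fell and 8 rose (median -0.14), and the 4 with the smallest p all rose: the glycine transporter gene Slc6a9 (27.9 to 77.4 CPM, log2 1.47), the cystine transporter gene Slc7a11 (19.4 to 154 CPM, log2 2.99), the stress hormone gene Gdf15 (40.1 to 115 CPM, log2 1.52) and the amino acid transporter gene Slc1a4 (60.6 to 106 CPM, log2 0.80). Slc7a11 is also a well-known target of NRF2. On top of the Fem1b siRNA, the Keap1 siRNA raised Gdf15 again, by less (23.7 to 37.5 CPM, log2 0.66, adjusted p = 7e-08, edgeR; interaction -0.86, adjusted p = 1.3e-06). It lowered Slc6a9 (28.8 to 25.6 CPM, adjusted p = 0.0052), and the differences of Slc7a11 (10.4 to 10.8 CPM, adjusted p = 0.7) and Slc1a4 (41.4 to 40.2 CPM, adjusted p = 0.49) did not pass. The 4 interactions of smallest p in this list were those of Slc6a9 (-1.64, adjusted p = 1e-11), Slc7a5 (-0.98, adjusted p = 2.8e-10), Slc7a11 (-2.93, adjusted p = 3.2e-10) and Aldh1l2 (-1.44, adjusted p = 4e-10). Chac1 and Slc7a11 thus reached their highest levels in different groups, Chac1 in siFem1b and Slc7a11 in siKeap1, and both were lower than siCont with both siRNAs.

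**Figure D4:**
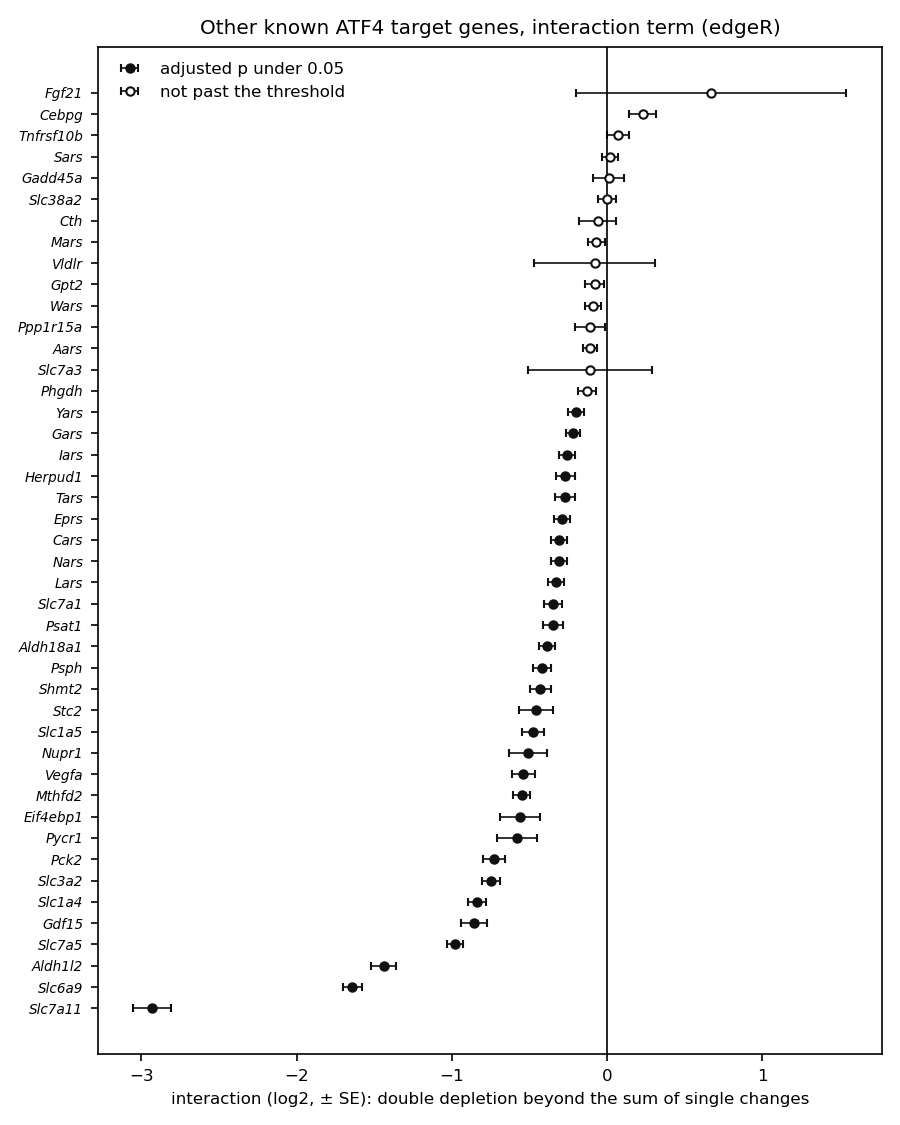
Interaction on the log2 scale with its SE (x axis) for the 44 other known ATF4 target genes (y axis, ordered by value); filled points passed an adjusted p of 0.05. The 29 filled points all lie left of 0, from -0.20 for Yars to -2.93 for Slc7a11, and no gene right of 0 is filled.

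Upstream of ATF4, the 20 genes of the eIF2 kinases, their regulators, the eIF2 and eIF2B subunits and the phosphatases were counted next. Against siCont, siKeap1 raised 4 and lowered 2, siFem1b raised 3 and lowered 13, and siFem1b/Keap1 raised 4 and lowered 13. Of all tested genes, 18.4% were called higher and 23.9% lower with siKeap1, 30.0% and 32.1% with siFem1b, and 33.9% and 33.7% with both. Of the kinases, Eif2ak3 (PERK, the sensor of the endoplasmic reticulum) was at 27.0 CPM in siCont, 21.7 with siKeap1, 36.7 with siFem1b and 37.3 with both, and its interaction was 0.34 (adjusted p = 0.0027, edgeR). Eif2ak2 (PKR, the sensor of double-stranded RNA) rose in each group, from 42.3 to 52.9, 57.3 and 67.5 CPM. Eif2ak4 (GCN2, the sensor of uncharged tRNA) fell with siFem1b alone, from 44.3 to 37.6 CPM (log2 -0.24, adjusted p = 0.00036), and was at 45.9 CPM in siKeap1 and 45.7 in siFem1b/Keap1 (interaction 0.23, adjusted p = 0.038). Eif2ak1 (HRI, the kinase of heme and mitochondrial stress) was lower by a log2 of -0.13 in siFem1b and -0.12 in siFem1b/Keap1. The 2 interactions that passed among these 20 genes, those of Eif2ak3 and Eif2ak4, were above 0, and none was below 0. Of all tested genes, 6.14% were called above 0 and 5.36% below, so these counts are near the background shares. At an unadjusted p under 0.05 edgeR gave 3 above 0 and 1 below, and after adjustment DESeq2 and limma-voom gave 2 and 0 as well.

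Of the 8 genes of eIF2 and eIF2B subunits, 7 were lower than siCont both in siFem1b and in siFem1b/Keap1. Eif2s1, which encodes the alpha subunit that the kinases phosphorylate, was at 203 CPM in siCont, 208 with siKeap1, 171 with siFem1b (log2 -0.25) and 180 with both (log2 -0.17, adjusted p = 0.002, edgeR). Eif2b4 did not pass in either (log2 -0.01 and 0.09, adjusted p = 0.82 and 0.13). In siFem1b/Keap1 the eIF2 subunit genes Eif2s3x (597 to 396 CPM, log2 -0.59) and Eif2s2 (335 to 225 CPM, log2 -0.57) were lower than in siCont, and so was the GCN2 cofactor gene Gcn1l1 (log2 -0.37). The phosphatase subunit Ppp1r15a (GADD34), which ATF4 and CHOP induce, was at 32.6 CPM in siCont, 35.7 with siKeap1, 27.8 with siFem1b and 28.4 with both (log2 -0.20, adjusted p = 0.017, edgeR), with an interaction of -0.11 that did not pass (adjusted p = 0.56). Its constitutive relative Ppp1r15b fell by 0.39 on the log2 scale with both siRNAs.

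Of 22 genes of the ATF6 and IRE1 branches of the unfolded protein response, 11 fell and 5 rose in siFem1b/Keap1 against siCont (median -0.10). Of all tested genes, 33.7% were called lower and 33.9% higher there. In the list 3 had an interaction that passed, all above 0, where 6.14% of all tested genes were called above 0. They were Hspa5 at 0.31, Pdia4 at 0.26 and Dnajc3 at 0.19, named after their values were seen. The chaperone genes Canx (-0.67), Hsp90b1 (-0.59) and Hspa5 (-0.48) and the ATF6 protease gene Mbtps1 (-0.43) fell, and the 5 that rose, named after their values were seen, were Edem1 (0.38), Syvn1 (0.36), Xbp1 (0.23), Sel1l (0.17) and Atf6 (0.11). Hspa5 encodes the main chaperone of the endoplasmic reticulum, and the adjusted p of its interaction was 0.0012 (edgeR). At an unadjusted p under 0.05 edgeR gave 8 interactions above 0 and 2 below in this list, and after adjustment DESeq2 and limma-voom each gave 3 and 0. Of the 9 CHOP target genes, 4 fell and 3 rose in siFem1b/Keap1 against siCont, near the shares of all tested genes (33.7% and 33.9%). Those that fell were Wars (-0.68), Ppp1r15a (-0.20), Car6 (1.37 to 0.233 CPM, log2 -2.57) and Trib3 (-1.36), which is also one of the 10 genes studied. Those that rose were the death receptor gene Tnfrsf10b (54.6 to 82.1 CPM, log2 0.59), the cell death gene Bbc3 (0.51) and Ero1l (0.34), an oxidase gene of the endoplasmic reticulum.

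Among 9 paralogues of the 10 genes, the interaction passed in 0 with edgeR, 0 with DESeq2 and 0 with limma-voom. Of all tested genes, edgeR called 6.14% above 0 and 5.36% below, so 0 of 9 is near the background shares. At an unadjusted p under 0.05, edgeR gave 2 above 0 and 2 below. In siFem1b/Keap1 against siCont 4 rose and 3 fell, near the shares of all tested genes (33.9% and 33.7%). Chac2, the low-activity relative of Chac1, was at 4.15 CPM in siCont, 4.33 with siKeap1, 5.18 with siFem1b and 5.65 with both (log2 0.45 with both siRNAs, adjusted p = 0.00059, edgeR), where Chac1 fell. Ddit4l, the relative of Ddit4, rose from 2.52 to 6.25 CPM with siKeap1, 5.27 with siFem1b and 9.69 with both. Trib1 (-0.24) and Trib2 (-0.34) fell with both siRNAs. Sesn1 fell (-0.20) and Sesn3 rose (0.22). Of the C/EBP genes, Cebpa rose from 3.64 to 10.2 CPM (log2 1.48), while Cebpd (0.31, adjusted p = 0.065) and Cebpg (-0.10, adjusted p = 0.15) did not pass.

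Among 24 C/EBP, ATF and AP-1 family partners, 21 passed the filter, and in siFem1b/Keap1 against siCont 8 rose and 9 fell. By smallest p these were Nfe2l2, which encodes NRF2 (136 to 51.3 CPM, log2 -1.40), Maf (2.98 to 9.29 CPM, log2 1.65), Cebpa and the AP-1 repressor gene Jdp2 (68.4 to 40.1 CPM, log2 -0.77). Of 31 genes of mTORC1 and its inputs, the pathway that Ddit4 and Sesn2 restrain, 30 passed the filter, and 10 rose and 13 fell. The arginine sensor paralogue gene Castor2 (17.3 to 35.3 CPM) and the folliculin gene Flcn (34.1 to 56.2 CPM) rose, and the kinase gene Mtor (88.6 to 53.4 CPM) and Fnip2 (53.5 to 27.8 CPM) fell. Of all tested genes, 33.9% were called higher and 33.7% lower in that comparison.

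Over the 12 libraries, the 10 genes fell into a group that moved together and others that did not. Pearson's r of log2 CPM was 0.97 between Atf4 and Asns, 0.95 between Atf4 and Atf5, 0.93 between Atf4 and Trib3, and 0.98 between Trib3 and Asns. Chac1 followed Trib3 (0.90) more closely than Atf4 (0.71). Sesn2 ran against Atf4 (-0.86), and Cebpb ran against Ddit3 (-0.81). The 12 points are 4 groups of 3 and share their conditions, so these values mainly restate the group means: with the group means taken out, r between Atf4 and Asns was 0.16 and between Atf4 and Trib3 0.61, and the sign turned for Atf4 and Sesn2 (0.32) and for Ddit3 and Cebpb (0.48). Among Atf4, Asns, Trib3, Atf5, Atf3 and Chac1 it also turned for Asns with Atf5 (-0.56) and with Atf3 (-0.60). The other pairs of these genes stayed above 0, with 0.04 between Trib3 and Asns.

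**Figure D5:**
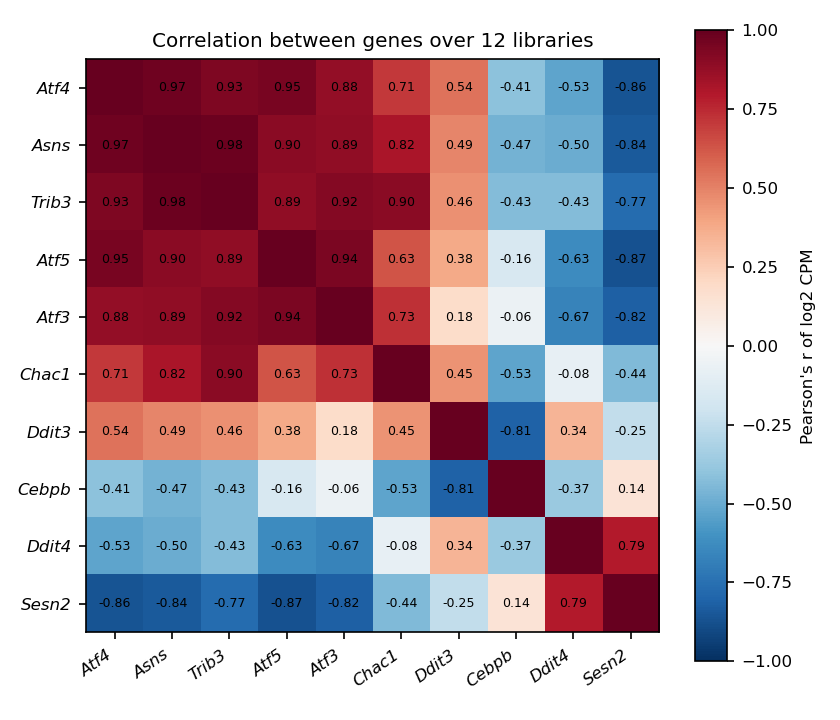
Pearson's r of log2 CPM over 12 libraries for each pair of the 10 genes (both axes), with red for positive and blue for negative values. Atf4, Asns, Trib3, Atf5, Atf3 and Chac1 form a red block from 0.63 to 0.98, and Sesn2 and Ddit4 are blue against that block, from -0.08 to -0.87.

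Among 10202 genes with a mean of at least 5 CPM, those with the pattern most like Atf4 were Adprh (r = 0.992), Ccnb1 (0.987) and Dlgap5 (0.985), the last pair being genes of mitosis. Most like Ddit3 were Rad9a (0.963), Scx (0.946) and Rcn2 (0.942). Most like Chac1 were Pycr1 (0.932), Tln2 (0.929) and Bmpr2 (0.918); Pycr1, a proline synthesis gene, is itself on the list of ATF4 targets and fell from 7.58 to 4.07 CPM with both siRNAs.

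An siRNA can also lower other mRNAs through its seed, positions 2 to 8 of the guide strand. A perfect 7-base match to a seed was found in 3 of the 10 genes in the transcript with the highest TPM, each in the 3′ UTR, and in neither Atf4, Chac1, Trib3 nor Asns. The sites are printed with the match in capitals, since 1 of them lies in a gene that fell with the matching siRNA.
Atf5, siFem1b seed, chr7:44812415-44812439, minus strand: ccaggacctCAGAATTtatactggc
Cebpb, siKeap1 seed, chr2:167690137-167690161, plus strand: gcgcgtgtgGACACGGgactgacgc
Atf3, siCont seed, chr1:191170364-191170388, minus strand: tcattacagTTTTCTGtaagagaaa

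Atf5 was 1.21-fold lower with siFem1b, and Cebpb was 1.63-fold higher with siKeap1. In the 3′ UTRs of 13340 tested genes the same matches occurred in 12.5% for siFem1b, 2.46% for siKeap1 and 23.7% for siCont. The part of the seed in the Atf5 change was not tested.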

How the data were processed

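RNA was sequenced from 12 C2C12 libraries, 3 for each of 4 siRNA groups taken from the sample titles, in 2 runs per library. Per the submitters' processing notes, the authors used kallisto 0.44.0 and build mm10; read trimming is not given in the sources used here. The deposited tables give estimated counts, TPM and effective lengths per transcript. By identifier, 98.5% of transcripts were found in GENCODE M21 (0.608% to 0.637% of a library's counts were left out), and estimated counts were summed by gene symbol and over runs and rounded. Deposited TPM served only for levels and transcript choice, and deposited effective lengths (another unit) for 1 alternative. Between runs of the same library, counts varied 2.33 to 2.84 times as much as counting error predicts.

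Genes were filtered with filterByExpr (14564 kept, including all 10 studied), scaled by TMM (factors 0.952 to 1.045) and fitted with edgeR 4.0.16 (robust quasi-likelihood, R 4.3.3), 1 term per group, 2-sided, Benjamini and Hochberg adjustment within each comparison, threshold 0.05. The TMM factors were 0.952 to 0.980 without the Fem1b siRNA and 1.019 to 1.045 with it. Intervals of 95% use the SE and 8 residual degrees of freedom. The common biological coefficient of variation was 0.0499. Log CPM for correlations used a prior count of 2. The fit was tested on simulated data. The genes studied, the lists and the tests were chosen with earlier results of these data known. Named beside them were Keap1, Fem1b, the eIF2 kinases, Ppp1r15a, Ppp1r15b, the paralogues, up to 4 genes of smallest p in each list described, and the 3 genes most correlated with Atf4, Ddit3 and Chac1. Alternatives were DESeq2 1.42.0 size factors and Wald test, library totals, limma-voom (limma 3.58.1), other filters, a length offset, single runs, a replicate block, only the groups compared, and each library left out.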

Additional observations from a re-analysis of the deposited data

Results flagged for a closer look

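For 4 genes the effect of the Keap1 siRNA differed between cells with and without the Fem1b siRNA, by the test of that difference (the interaction, log2, edgeR's quasi-likelihood test over all genes). Without the Fem1b siRNA the Keap1 siRNA changed Chac1 by -0.13 and with it by -1.54, a difference of -1.41 (adjusted p = 4.2e-09). The difference was -0.96 for Trib3 (adjusted p = 7.1e-07), -0.94 for Atf3 (adjusted p = 5.9e-06) and -0.53 for Asns (adjusted p = 1.4e-05). In each of them all 3 libraries of the double depletion lay below all 9 others. The same held for Atf4 and Atf5, whose interactions did not pass. How many of all tested genes were separated in this way was not counted. In siFem1b/Keap1 against siCont alone, 33.7% of them were called lower. The summed level of differentiated muscle markers also differed between these groups, at 548 to 571 CPM in siFem1b and 315 to 321 CPM in siFem1b/Keap1, and its part in these differences was not tested.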

How the results depend on the processing

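Of 60 results, 10 genes in 6 comparisons, 46 passed the threshold, 40 of them under every alternative run and none with a reversed sign. The 6 lost at least once were Atf5, Ddit4 and Trib3 in siKeap1, Atf3 in siFem1b, and Ddit3 and Sesn2 between the double depletion and siFem1b. Trib3 was lost in the first run alone (adjusted p = 0.077, edgeR). Results that changed sign had not passed: in siFem1b against siCont, Trib3 came to 0.01 and Cebpb to 0.07 with library totals, Cebpb to 0.03 with at least 5 CPM, to 0.04 in the first run and to between -0.08 and 0.06 with a library left out (0.06 without siFem1b 2), and Ddit3 to 0.06 in the first run; the Sesn2 interaction came to -0.03 in the first run and to between -0.01 and 0.10 with a library left out (-0.01 without siCont 1 or siFem1b/Keap1 3). The Ddit4 difference between the double depletion and siFem1b, 0.00, ranged from -0.13 in the first run to 0.04. The cause was not tested.

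Of the 10 genes, those with a called interaction numbered 7 without a filter (4 in the main result) and 4 to 7 with a library left out, the highest without siFem1b 2. All genes with a called interaction numbered 1674, 841 with the length offset, 934 in the first run, which has fewer counts, and 1265 to 1898 with a library left out. The share of them above 0 was 53.4%, and 38.6% to 53.6% with a library left out (lowest without siFem1b 2, and more were below 0 than above also without siCont 1, siFem1b 3 or siFem1b/Keap1 3). With siKeap1 the count among the 10 was 4 in the first run in place of 7, and 5 to 7 with a library left out. Replicate numbers did not pair the libraries: deviations of same-numbered libraries correlated from -0.26 to 0.26, 6 of 18 pairs were above 0.1, and 3 of 12 libraries correlated best with their own number. The replicate block moved the siKeap1 count among the 10 from 7 to 6 (Ddit4, adjusted p = 0.052), left the others, and gave 1490 interaction calls. A fit of only the groups compared cannot be made for the interaction.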
